A study of Homo sapiens with 4 samples.

Results

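The expression of 10 genes that carry pyruvate into mitochondria and control its oxidation was examined in HepG2, a human hepatocellular carcinoma cell line. The genes were taken by symbol: MPC1 and MPC2 (mitochondrial pyruvate carrier), PDHA1, PDHB and DLAT (pyruvate dehydrogenase complex), PDK1, PDK2, PDK3 and PDK4 (pyruvate dehydrogenase kinases) and PDP1 (pyruvate dehydrogenase phosphatase). All 10 were listed once in each count table, among 24462 genes. HepG2 cells had been given DMSO, the solvent, or PD0332991, an inhibitor of the CDK4 and CDK6 kinases, or had received siRNA oligos, either scrambled or directed at CDK4 and CDK6 (CDK4/6 KD). The 4 conditions had 1 library each, all from this cell line, and the sources used here did not give the dose or the times of treatment for the cells that were sequenced. The study dealt with the mitochondrial sirtuin SIRT3 and the response of liver cancer cells to the drug sorafenib. It used these libraries to assess genes of glycolysis and the TCA cycle after CDK4/6 inhibition. Total RNA was read by QuantSeq 3′ mRNA sequencing, which primes at the poly(A) tail and so yields reads from the 3′ end of a transcript whatever its length, and levels of different genes were compared as reads without division by length.

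Pyruvate made by glycolysis crosses the inner mitochondrial membrane through a carrier built of MPC1 and MPC2, and the pyruvate dehydrogenase complex then converts it to acetyl-CoA. The complex is switched off when PDK kinases phosphorylate its E1 alpha subunit and switched on again when PDP phosphatases remove the phosphate. In liver this switch sets whether pyruvate is oxidized or spared for lactate and glucose production, and PDK4 is the kinase known for its induction in the fasted liver.

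Library totals ran from 8983848 to 11176880 reads, and levels are given as CPM, read counts scaled to a common library size, after TMM correction of library size. The targeted genes were lower in the library labelled CDK4/6 KD: CDK4 was at 301 CPM in DMSO, 257 in PD0332991, 354 in scrambled siRNA and 71.9 in CDK4/6 KD. CDK6 was at 515, 479, 536 and 129 CPM in the same order. Fold changes compared CDK4/6 KD with scrambled siRNA and PD0332991 with DMSO where a gene reached 10 reads in either library, and the scrambled siRNA and DMSO libraries were compared with each other to show how far libraries without CDK4/6 inhibition differed. Intervals are 95% Clopper-Pearson intervals (exact) for how a gene's reads split between 2 libraries. They cover counting error only, and no molecular identifiers that would mark PCR copies were named in the sources used here. Replicates were lacking in every condition, so p-values could not be computed and each comparison is between libraries and not between conditions.

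Promoters of 9 of the 10 genes, at 14 start sites, were matched by symbol in a RefSeq table (GRCh38.p14), and stretches of 3 of them are printed because PDHA1, PDK1 and PDK2 lay farthest from 1 in the CDK4/6 KD library. The letters ACGTG, the core of the element bound by hypoxia-inducible factors, and TTTNNCGC, a form of the motif of E2F factors, which CDK4/6 release from RB, were searched on both strands in the 250 bases before each start. ACGTG stood in 18.5% of all 34943 promoter windows of that length and in 5 of the 14 windows of these genes, and TTTNNCGC stood in 5.89% of all windows and in 1 of the 14. PDHA1 held the TTTNNCGC match at chrX:19343677-19343892 (plus strand), shown up to the first annotated exon. PDK1 had 2 listed starts, with no match before the first and 2 ACGTG matches, read on the minus strand, in the 30 bases before the second at chr2:172556060-172556089 (plus strand), a stretch that GENCODE 29 counts as exonic in a longer transcript. PDK2 had 3 listed starts, with a match before the second only, at chr17:50095101-50095274 (plus strand), where the palindrome CACGTG gives a match on each strand. Of the listed starts of PDK1 and PDK2, only those with a match are printed. ACGTG also stood 3 times before PDHB and once each before DLAT and PDK3, which are not printed. Capitals mark the matches, which describe letters and not bound sites, and which start the cells used was not measured.
PDHA1: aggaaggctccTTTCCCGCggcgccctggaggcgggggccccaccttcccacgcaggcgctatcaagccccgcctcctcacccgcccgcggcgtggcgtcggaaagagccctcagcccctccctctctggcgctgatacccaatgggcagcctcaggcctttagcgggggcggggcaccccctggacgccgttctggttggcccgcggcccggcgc
PDK1: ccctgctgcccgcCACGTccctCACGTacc
PDK2: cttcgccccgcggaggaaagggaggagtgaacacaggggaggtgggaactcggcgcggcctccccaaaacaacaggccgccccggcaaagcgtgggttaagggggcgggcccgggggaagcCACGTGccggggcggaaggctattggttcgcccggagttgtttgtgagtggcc

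PDK1 was the member that differed most from its control in the CDK4/6 KD library, at 0.400 times the level in scrambled siRNA. PDHA1 was next, at 0.527, while PDK2 was 1.60-fold higher and MPC1 1.33-fold higher. After PD0332991, PDK3 was at 0.584 times the level in DMSO and 7 of the 9 measured members lay below 1, as 48.4% of 13443 genes did, while PDP1 was 2.10-fold higher on 16 and 34 reads. PDK4 was at or under 2 reads in every library and could not be compared.

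Of the 9 members with at least 10 reads in either library, CDK4/6 KD had 0 that were 2-fold or more above scrambled siRNA and 1 that was as far below it, where 9.19% and 7.62% of 13617 genes were. At 1.5-fold, 1 member was higher (PDK2) and 2 were lower (PDK1 and PDHA1), against 19.4% and 17.4% of all genes. After PD0332991, 1 member was at least 2-fold higher (PDP1) and 0 were lower, against 7.49% and 7.06% of all genes, and at 1.5-fold 1 was higher and 1 was lower (PDK3), against 16.8% and 15.1%. Between scrambled siRNA and DMSO, 1 member was at least 2-fold higher (PDP1) and 0 were lower, against 5.3% and 6.64% of 13303 genes. At 1.5-fold the counts between these controls were 1 and 0, against 13.4% and 15.7%. A count of 1 of 9 at 2-fold is near the share of all genes in each comparison.

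The median log2 fold change of the 9 members was -0.32 in CDK4/6 KD, -0.24 after PD0332991 and 0.21 between scrambled siRNA and DMSO, while the medians of all genes were -0.004, 0.018 and 0.009. The interval of a member excluded 1 for 8 of 9 in CDK4/6 KD (4 above and 4 below), for 7 of 9 after PD0332991 (1 above and 6 below) and for 6 of 9 between the controls (4 above and 2 below). Over all genes 30.0% lay above and 31.9% below in CDK4/6 KD, 28.1% and 28.6% after PD0332991, and 28.3% and 28.0% between the controls. Among genes that reached 50 reads in either library, a group that held 9, 8 and 9 of the members in these comparisons, the interval excluded 1 for 67.7%, 63.1% and 61.9%. Intervals that excluded 1 were common among all genes and between the libraries without CDK4/6 inhibition, and their count says nothing particular about the members. PDHA1, DLAT, PDK1 and PDK3 were below 1 in both treated libraries, PDK2 was above 1 in both, and MPC1, MPC2, PDHB and PDP1 were on opposite sides of 1.

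**Figure D1:**
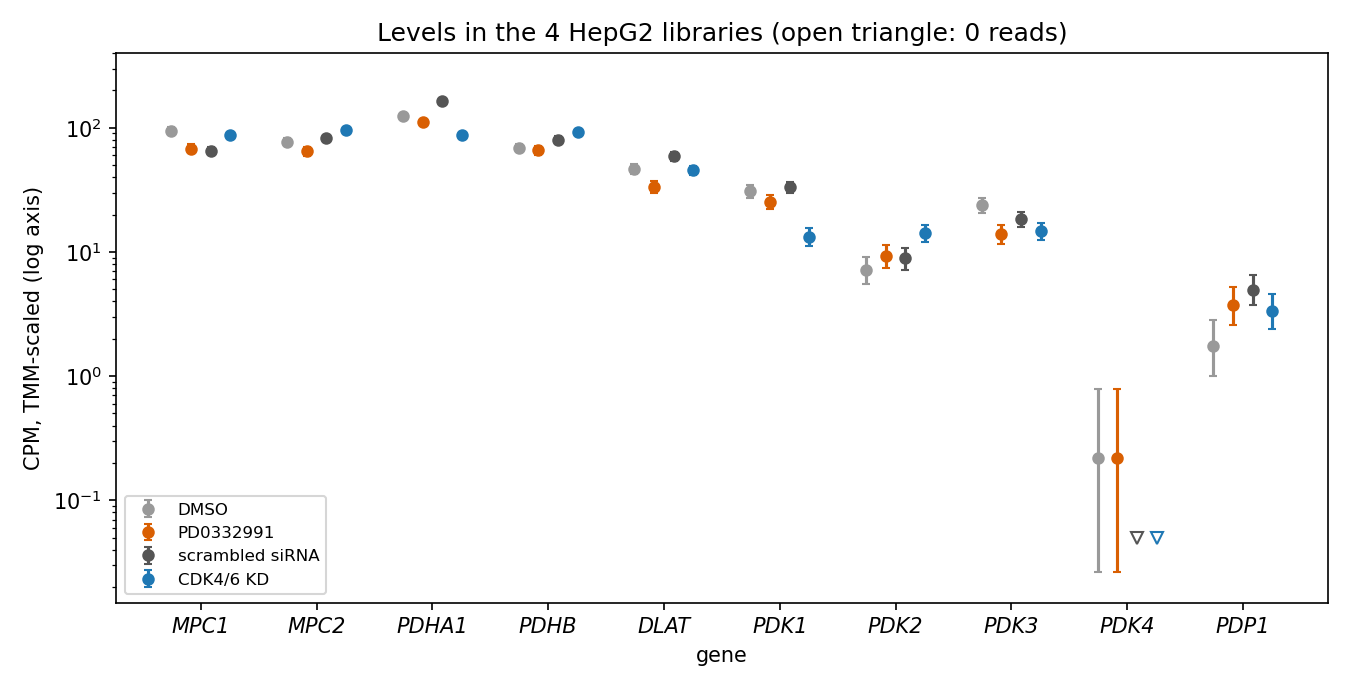
Level of each gene in the 4 HepG2 libraries, in TMM-scaled CPM on a log axis; each point is 1 library, bars are exact 95% Poisson intervals (counting error only), and open triangles mark 0 reads. PDK1 in CDK4/6 KD, at 13.3 CPM, lies below the other 3 libraries, which run from 25.2 to 33.2, and PDK4 stays under 0.22 CPM throughout.

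The carrier and catalytic genes were the most abundant members and the regulators the least. In DMSO the order ran from PDHA1 (125 CPM) through MPC1, MPC2, PDHB, DLAT, PDK1, PDK3, PDK2 and PDP1 to PDK4, and of the neighbours in it MPC2 with PDHB had overlapping counting intervals. PDHA1 was the highest member in DMSO, PD0332991 and scrambled siRNA. In CDK4/6 KD MPC2, PDHB, PDHA1 and MPC1 followed each other with overlapping intervals, from 95.3 down to 86.7 CPM. The kinases closed up in the same way in CDK4/6 KD, where PDK3, PDK2 and PDK1 lay at 14.7, 14.2 and 13.3 CPM with overlapping intervals, while in DMSO they lay at 23.8, 7.11 and 30.8.

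MPC1 (chr6:166364919-166383013, minus strand, GRCh38), the smaller subunit of the carrier, gave 859 reads in DMSO, 618 in PD0332991, 696 in scrambled siRNA and 981 in CDK4/6 KD, or 94.01, 67.9, 65.0 and 86.7 CPM. The DMSO and CDK4/6 KD libraries were the high ones and the PD0332991 and scrambled siRNA libraries the low ones, so that treated and control libraries interleaved. In CDK4/6 KD MPC1 was 1.33-fold above scrambled siRNA (95% interval 1.21 to 1.47) and at 0.722 times DMSO after PD0332991 (interval 0.650 to 0.802). Between the controls the ratio was 0.692 (interval 0.625 to 0.766), and CDK4/6 KD set against DMSO gave 0.922 (interval 0.840 to 1.01).

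MPC2 (chr1:167916729-167937040, minus strand), the partner that MPC1 needs to form a working carrier, gave 700, 589, 877 and 1079 reads in DMSO, PD0332991, scrambled siRNA and CDK4/6 KD, or 76.6, 64.7, 82.0 and 95.3 CPM. Its lowest library was PD0332991 and its highest CDK4/6 KD, with the controls between them. The fold change was 1.16 in CDK4/6 KD (interval 1.06 to 1.27), 0.844 after PD0332991 (interval 0.755 to 0.944) and 1.07 between the controls (interval 0.968 to 1.18). MPC1 made up 55.1% of the carrier reads in DMSO, 51.2% in PD0332991, 44.2% in scrambled siRNA and 47.6% in CDK4/6 KD. This share, which needs no scaling between libraries, differed more between the controls than between either treated library and its control.

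PDHA1 (chrX:19343893-19361705, plus strand) encodes the E1 alpha subunit, the one that the kinases phosphorylate. It gave 1140 reads in DMSO, 1014 in PD0332991, 1769 in scrambled siRNA and 986 in CDK4/6 KD, or 125, 111, 165 and 87.1 CPM. Scrambled siRNA was the highest library and CDK4/6 KD the lowest. The fold change was 0.527 in CDK4/6 KD (interval 0.487 to 0.570), and 8.835% of all genes were as low or lower in that comparison. Against DMSO it was 0.698 (interval 0.640 to 0.761), and the controls differed by 1.32 (interval 1.23 to 1.43). After PD0332991 it was 0.893 (interval 0.819 to 0.972).

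The last 500 bases of PDHA1 are overlapped on the other strand by MAP3K15, and whether the counting used strand was not given, so reads of the 2 genes may not have been told apart. MAP3K15 itself was listed with 117, 121, 113 and 111 reads, far fewer than PDHA1. GENCODE 29 also names a processed copy, PDHA1P1, with which PDHA1 may share reads.

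PDHB (chr3:58427630-58433857, minus strand), the E1 beta subunit that pairs with E1 alpha, moved the other way in CDK4/6 KD. It gave 630, 601, 851 and 1044 reads in DMSO, PD0332991, scrambled siRNA and CDK4/6 KD, or 69.0, 66.0, 79.5 and 92.2 CPM, with a fold change of 1.16 in CDK4/6 KD (interval 1.06 to 1.27), 0.957 after PD0332991 (interval 0.855 to 1.07) and 1.15 between the controls (interval 1.04 to 1.28). The E1 subunits were thus read at different proportions. PDHA1 took 64.4% of the PDHA1 and PDHB reads in DMSO (interval 62.1 to 66.6), 62.8% in PD0332991 (interval 60.4 to 65.2), 67.5% in scrambled siRNA (interval 65.7 to 69.3) and 48.6% in CDK4/6 KD (interval 46.4 to 50.8). The CDK4/6 KD share was the lowest, and its interval did not overlap those of the other 3 libraries, whose shares ran from 62.8% to 67.5%. PDHA1 reads per PDHB read were 0.944 in CDK4/6 KD and 1.69 to 2.08 elsewhere.

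DLAT (chr11:112024814-112064390, plus strand) encodes the E2 subunit, which passes the acetyl group to coenzyme A from a lipoate arm. It gave 428, 304, 629 and 515 reads in DMSO, PD0332991, scrambled siRNA and CDK4/6 KD, or 46.8, 33.4, 58.8 and 45.5 CPM. Each treated library was below its own control, with a fold change of 0.774 in CDK4/6 KD (interval 0.688 to 0.871) and 0.713 after PD0332991 (interval 0.613 to 0.828). Scrambled siRNA was 1.25-fold above DMSO (interval 1.11 to 1.42), and CDK4/6 KD did not differ from DMSO beyond counting error (fold change: 0.971, interval 0.853 to 1.11). The 3′ end of DLAT overlaps PIH1D2 on the other strand, which was listed with 31 to 49 reads.

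**Figure D2:**
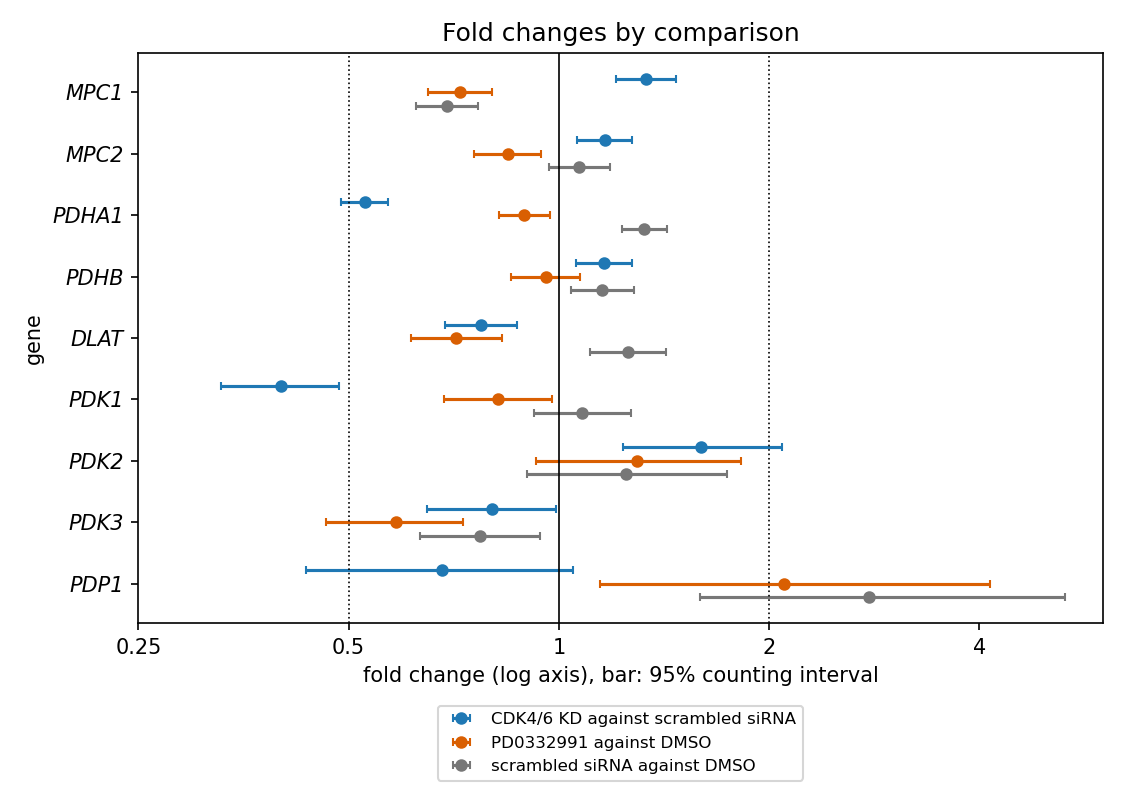
Fold change of the 9 genes with at least 10 reads on a log axis, for CDK4/6 KD against scrambled siRNA, PD0332991 against DMSO and scrambled siRNA against DMSO; bars are 95% intervals for counting error and dotted lines mark 2-fold. PDK1 in CDK4/6 KD is the value whose whole interval (0.328 to 0.485) lies past a dotted line, and PDP1 has its largest fold change between the controls.

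The kinases differed from each other within each comparison, and their summed level was lower in both treated libraries. Summed over the 4 kinase genes the level was 61.8 CPM in DMSO, 48.4 in PD0332991, 60.4 in scrambled siRNA and 42.1 in CDK4/6 KD. The summed fold change was 0.698 in CDK4/6 KD (interval 0.619 to 0.787) and 0.784 after PD0332991 (interval 0.690 to 0.889), while the controls differed by 0.976 (interval 0.871 to 1.09). PDK1 and PDK3 were the kinases below 1 in these libraries, PDK1 further below in CDK4/6 KD and PDK3 in PD0332991.

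PDK1 (chr2:172555373-172608669, plus strand), a kinase known as a target of hypoxia-inducible factor 1 and common in tumours, gave 281 reads in DMSO, 229 in PD0332991, 355 in scrambled siRNA and 150 in CDK4/6 KD, or 30.8, 25.2, 33.2 and 13.3 CPM. CDK4/6 KD stood below the other 3 libraries, of which PD0332991 was the lowest, with a counting interval (22.0 to 28.6 CPM) under that of scrambled siRNA (29.8 to 36.8 CPM). The fold change was 0.400 in CDK4/6 KD (interval 0.328 to 0.485), with 4.054% of all genes as low or lower, and 0.432 against DMSO (interval 0.351 to 0.527). It was 0.818 after PD0332991 (interval 0.684 to 0.977) and 1.08 between the controls (interval 0.920 to 1.27). PDK1 took 54.9% of all kinase reads in scrambled siRNA (interval 51.0 to 58.8), 49.7% in DMSO, 51.9% in PD0332991 and 31.4% in CDK4/6 KD (interval 27.3 to 35.8).

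PDK2 (chr17:50094737-50112152, plus strand), a widely expressed kinase that is prominent in normal liver, gave 65 reads in DMSO, 84 in PD0332991, 95 in scrambled siRNA and 161 in CDK4/6 KD, or 7.11, 9.22, 8.88 and 14.2 CPM. The CDK4/6 KD library was the high one and the other 3 had overlapping counting intervals. The fold change was 1.60 in CDK4/6 KD (interval 1.24 to 2.09) and 1.99 against DMSO (interval 1.49 to 2.71), and 1.29 after PD0332991 (interval 0.927 to 1.82) and 1.25 between the controls (interval 0.901 to 1.74). Its share of the kinase reads was 11.5% in DMSO, 19.05% in PD0332991, 14.7% in scrambled siRNA and 33.75% in CDK4/6 KD (interval 29.5 to 38.2). PDK1 reads per PDK2 read numbered 0.932 in CDK4/6 KD, 3.74 in scrambled siRNA, 4.32 in DMSO and 2.73 in PD0332991.

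SAMD14 overlaps the 3′ end of PDK2 on the other strand and was listed with 26, 24, 27 and 58 reads in DMSO, PD0332991, scrambled siRNA and CDK4/6 KD. It was therefore high in the same library as PDK2, and without the strand setting of the counting the reads of this pair cannot be told apart.

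PDK3 (chrX:24465221-24541862, plus strand), a kinase with a restricted tissue distribution and high activity, gave 217 reads in DMSO, 126 in PD0332991, 196 in scrambled siRNA and 166 in CDK4/6 KD, or 23.8, 13.8, 18.3 and 14.7 CPM. DMSO was the high library. The fold change was 0.584 after PD0332991 (interval 0.464 to 0.729), with 10.16% of all genes as low or lower, and 0.801 in CDK4/6 KD (interval 0.647 to 0.990). The controls differed by 0.772 (interval 0.632 to 0.940), and against scrambled siRNA the fold change after PD0332991 was 0.756 (interval 0.599 to 0.9498). PDK3 took 38.4% of the kinase reads in DMSO, 28.6% in PD0332991, 30.3% in scrambled siRNA and 34.8% in CDK4/6 KD.

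PDK4 (chr7:95583499-95596491, minus strand) gave 2 reads in DMSO, 2 in PD0332991 and 0 in scrambled siRNA and CDK4/6 KD. All 4 libraries were at or under the floor of 3 reads, which corresponds to between 0.265 and 0.330 CPM, so no difference was detectable at this depth and no fold change is given. Its share of the kinase reads was 0.354% in DMSO and 0.454% in PD0332991, and the 0 reads allow shares of up to 0.569% in scrambled siRNA and 0.770% in CDK4/6 KD (upper end of the exact interval).

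**Figure D3:**
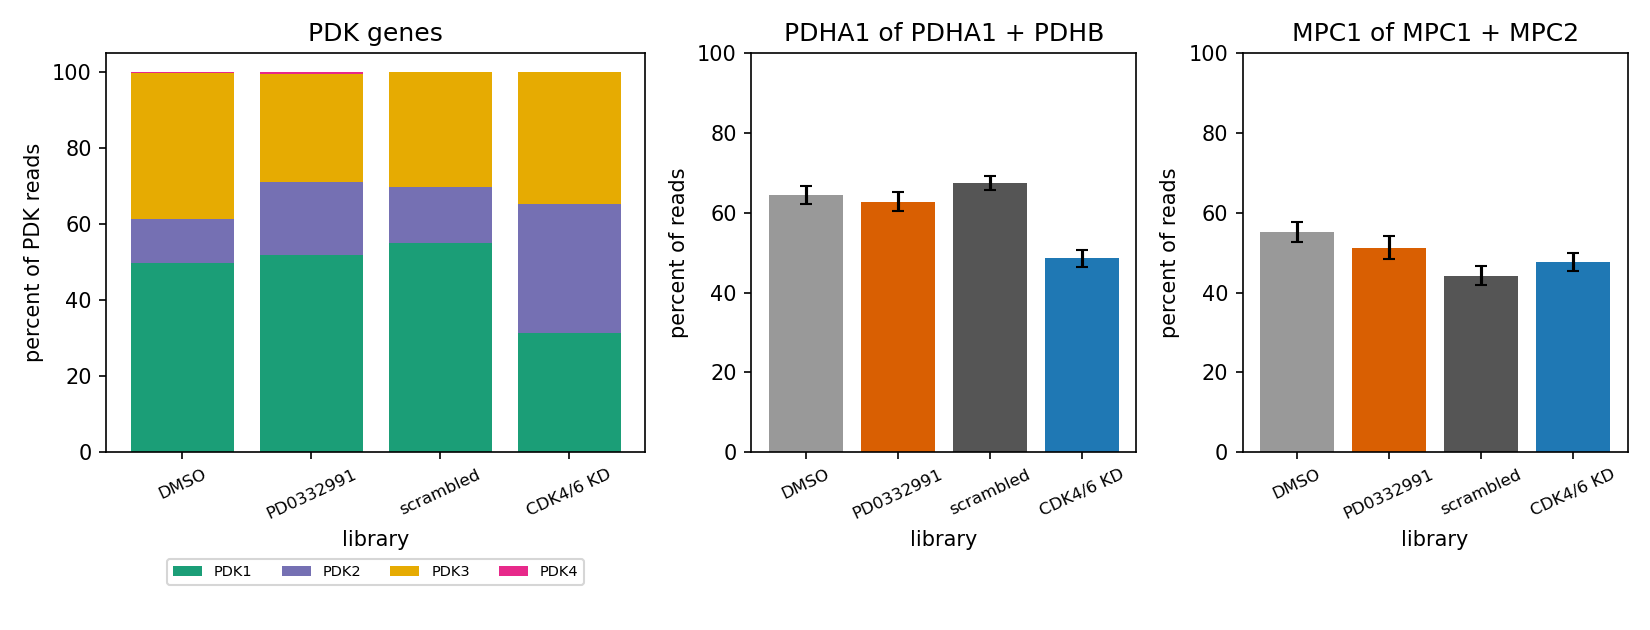
Shares of reads within each library, in percent, which do not depend on library scaling: the 4 PDK genes (left, stacked to 100), PDHA1 among PDHA1 and PDHB (middle) and MPC1 among MPC1 and MPC2 (right). Error bars in the middle and right panels are exact 95% intervals. In CDK4/6 KD the PDK1 share is 31.4% and the PDHA1 share 48.6%, below the other 3 libraries, while the MPC1 share of 47.6% lies between those of the controls.

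PDP1 (chr8:93857807-93926066, plus strand), a catalytic subunit of the phosphatase that reactivates the complex, was the scarcest member after PDK4. It gave 16 reads in DMSO, 34 in PD0332991, 53 in scrambled siRNA and 38 in CDK4/6 KD, or 1.75, 3.73, 4.95 and 3.36 CPM. DMSO was the low library, with a counting interval (1.00 to 2.84 CPM) that overlapped those of PD0332991 and CDK4/6 KD but not that of scrambled siRNA. The fold change of 2.10 after PD0332991 (interval 1.15 to 4.14) was smaller than that of 2.78 between scrambled siRNA and DMSO (interval 1.59 to 5.30), and against scrambled siRNA PD0332991 gave 0.756 (interval 0.475 to 1.18). In CDK4/6 KD the fold change was 0.681 (interval 0.435 to 1.05) and against DMSO 1.89 (interval 1.04 to 3.68), so its direction depended on the control library in both arms.

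Set against the kinases, PDP1 made up 2.75% of the reads of PDP1 and the 4 PDK genes in DMSO, 7.16% in PD0332991, 7.58% in scrambled siRNA and 7.38% in CDK4/6 KD. PDP2, the other catalytic phosphatase subunit, gave 654, 506, 711 and 774 reads in the same order. PDP2 reads thus outnumbered those of PDP1 in every library, by 40.9 to 1 in DMSO and by 13.4 to 20.4 to 1 in the other 3.

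Each condition was a bulk sample, in which fewer cells of a type and less RNA per cell cannot be told apart. All 10 hepatocyte markers had at least 1356 reads, with a summed level of 17440 to 22300 CPM, which are the levels of abundant genes. The 16 keratinocyte markers were summed at 77.3 CPM in DMSO, 175 in PD0332991, 69.1 in scrambled siRNA and 111 in CDK4/6 KD. KRT10 gave most of these reads in the libraries other than PD0332991 (606, 701, 514 and 986 reads in DMSO, PD0332991, scrambled siRNA and CDK4/6 KD), and without it the other 15 markers were summed at 10.9, 98.0, 21.0 and 24.0 CPM. All 16 markers had a higher CPM in PD0332991 than in DMSO, but TP63 (1 read in each) and DSG3 (2 in each) had equal reads. DSC3 (6 and 7 reads) and IVL (2 and 4) differed by few reads. Among the others were KRT14 (9 reads in DMSO and 249 in PD0332991), KRT6A (9 and 150), KRT17 (15 and 139) and KRT5 (2 and 113). In CDK4/6 KD 8 markers were higher and 8 lower than in scrambled siRNA, with KRT14 going from 31 to 74 reads, KRT5 from 13 to 43 and S100A2 from 74 to 41. TP63 had 0 or 1 reads in each library and DSG3 had 0 to 2. The 4 fibroblast markers were summed at 48.0, 76.0, 8.60 and 22.5 CPM in DMSO, PD0332991, scrambled siRNA and CDK4/6 KD, again higher in each treated library than in its control. The 3 endothelial markers had 4 to 5 reads in all, with CDH5 at 0, and of the immune markers PTPRC had 2 reads in DMSO and 0 elsewhere while LYZ gave most of the sum of 508 to 1034 CPM. The part of these other markers in the members' differences was not tested.

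The genes around the members were read from 8 lists holding 75 genes. Of 6 other genes, of the complex, its phosphatases and the pyruvate carrier family (MPC1L), 4 passed the filter and 0 were past 2-fold in either comparison. The medians of the log2 fold changes were -0.05 (CDK4/6 KD) and -0.19 (PD0332991). PDPR, the regulatory subunit of the phosphatase, was 1.86-fold higher in CDK4/6 KD (interval 1.66 to 2.10) and 1.60-fold higher after PD0332991 (interval 1.44 to 1.78), with 0.629 between the controls and 1.17 for CDK4/6 KD set against DMSO, and may share reads with near-identical copies, so its values are uncertain. PDHX, which anchors E3 to the complex, was at 0.718 (interval 0.637 to 0.809) and 0.808 (interval 0.691 to 0.944). DLD, the E3 subunit, was at 0.906 in CDK4/6 KD (interval 0.831 to 0.986). With DMSO as the control, DLD in CDK4/6 KD turned to 1.31 (interval 1.19 to 1.45). PDHX was then at 1.06, with an interval that included 1 (0.929 to 1.22). The controls differed by 1.48 for PDHX and by 1.45 for DLD. PDP2 was at 0.777 after PD0332991 (interval 0.690 to 0.873). PDHA2, the testis form of E1 alpha, had 9 reads in DMSO and 0 or 1 in the other libraries, and MPC1L had 0 in all.

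Genes that supply lipoate and thiamine, the cofactors of the complex, had a median log2 fold change of -0.34 in CDK4/6 KD (6 of 8 measured, 0 past 2-fold, 3 lower at 1.5-fold) and of -0.47 after PD0332991 (5 of 8 measured, 0 past 2-fold, 2 lower at 1.5-fold). In CDK4/6 KD LIAS, the lipoate synthase, was at 0.553 (interval 0.401 to 0.751) and LIPT1, a lipoyl transferase, at 0.605 (interval 0.382 to 0.936). After PD0332991 GCSH, the lipoate-bearing glycine cleavage protein, was at 0.724 (interval 0.632 to 0.827) and SLC19A2, a thiamine transporter, at 0.591 (interval 0.364 to 0.931). With DMSO as the control, LIAS was at 0.560 and LIPT1 at 0.787 (interval 0.4785 to 1.29) in CDK4/6 KD. With scrambled siRNA as the control, GCSH was at 0.714 and SLC19A2 at 0.830 (interval 0.5055 to 1.34) after PD0332991.

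The 7 genes of the sister 2-oxoacid dehydrogenase complexes had 0 past 2-fold in either comparison, with a median log2 fold change of -0.32 in CDK4/6 KD and 0.11 after PD0332991. BCKDK, the kinase of the branched-chain complex and a relative of the PDK kinases, was at 0.538 in CDK4/6 KD (interval 0.469 to 0.616) and DLST, the E2 subunit of the 2-oxoglutarate complex, at 0.573 (interval 0.494 to 0.661). PPM1K, the branched-chain phosphatase, was at 0.552 in CDK4/6 KD (interval 0.442 to 0.684) and 0.730 after PD0332991 (interval 0.552 to 0.960), where BCKDHA, the branched-chain E1 alpha subunit, was 1.66-fold higher (interval 1.38 to 2.00). With scrambled siRNA as the control these PD0332991 values were 0.476 for PPM1K and 0.991 for BCKDHA. With DMSO as the control, PPM1K in CDK4/6 KD was at 0.846 (interval 0.658 to 1.085), BCKDK at 0.668 and DLST at 0.689.

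Of 14 genes that make or use pyruvate by other routes, 11 were measured in CDK4/6 KD, with 1 at least 2-fold higher and 1 lower and a median log2 fold change of 0.32. PKM, the pyruvate kinase of most tumours, was at 0.341 (interval 0.328 to 0.355), or 0.537 against DMSO, LDHA, which reduces pyruvate to lactate, at 0.535 (interval 0.522 to 0.550), and PCK2, the mitochondrial PEP carboxykinase, 1.94-fold higher (interval 1.84 to 2.05). After PD0332991, 12 were measured, with 4 at least 2-fold higher and 1 lower and a median of 0.59. Among the higher ones LDHB had 5 reads in DMSO and 11 in PD0332991, with an interval that included 1 (0.707 to 8.1). The lower one, SLC16A7, had 22 and 9 reads. PCK2 was 3.47-fold higher (interval 3.26 to 3.70), PKLR, the liver pyruvate kinase, 2.16-fold higher (interval 1.82 to 2.58), and LDHA was at 0.614 (interval 0.597 to 0.632). PCK2 was at 134, 465, 184 and 357 CPM and LDHA at 1388, 852, 1455 and 779 CPM in DMSO, PD0332991, scrambled siRNA and CDK4/6 KD.

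Downstream, 2 of the 5 genes of citrate formation and export were at least 2-fold lower in CDK4/6 KD and 0 after PD0332991, with medians of 0.09 and -0.20. SLC25A1, the citrate carrier, was at 0.263 in CDK4/6 KD (interval 0.235 to 0.292) and CS, citrate synthase, at 0.372 (interval 0.328 to 0.421). After PD0332991 CS was at 0.732 (interval 0.672 to 0.797) and ACLY, which splits citrate in the cytosol, at 0.834 (interval 0.797 to 0.872). CS was also at 0.600 in scrambled siRNA against DMSO, so that with the other control its values were 0.223 in CDK4/6 KD and 1.22 after PD0332991, and that of ACLY after PD0332991 was 0.512.

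All 17 genes for regulators of PDK transcription and of the complex were measured, with 1 at least 2-fold above and 2 below scrambled siRNA in CDK4/6 KD, 0 above and 1 below DMSO after PD0332991, and medians of 0.28 and 0.02. HIF1A, the oxygen-regulated subunit of hypoxia-inducible factor 1, was at 0.407 in CDK4/6 KD (interval 0.354 to 0.466). E2F1, a factor that CDK4/6 activity frees from RB, was at 0.450 in CDK4/6 KD (interval 0.397 to 0.507) and 0.117 after PD0332991 (interval 0.0921 to 0.145). SIRT4, a mitochondrial sirtuin known to act on the complex, went from 10 reads in scrambled siRNA to 45 in CDK4/6 KD (fold change: 4.10, interval 2.11 to 9.47). After PD0332991 PPARGC1A, a coactivator of mitochondrial genes, was 1.97-fold higher (interval 1.58 to 2.47) and PPARG, a lipid-sensing receptor, was at 0.553 (interval 0.383 to 0.782), and the controls differed by 0.481 for PPARGC1A.

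The 10 HIF-1 targets other than PDK1 had 1 gene at least 2-fold higher and 4 lower in CDK4/6 KD. The median log2 fold change there was -0.53, with 3 targets above 1 and 7 below. After PD0332991, 0 of 8 measured were past 2-fold, with a median of -0.13. The higher gene in CDK4/6 KD was VEGFA, at 110 CPM against 52.3 in scrambled siRNA. From scrambled siRNA to CDK4/6 KD, BNIP3 went from 98.0 to 92.9 CPM, P4HA1 from 98.8 to 89.8 and KDM3A from 28.7 to 34.8. SLC2A1, the glucose transporter GLUT1, was at 0.120 (interval 0.113 to 0.128), ADM, adrenomedullin, at 0.305 (interval 0.249 to 0.370) and NDRG1 at 0.388 (interval 0.351 to 0.428) in CDK4/6 KD, as low as or lower than PDK1 at 0.400. Between the controls these 3 genes differed by 2.22, 2.17 and 1.76, with 3 of 9 measured targets 2-fold or more above DMSO in scrambled siRNA, and with DMSO as the control their ratios in CDK4/6 KD were 0.267, 0.662 and 0.682. PDK1 differed by 1.08 between the controls. After PD0332991 NDRG1 was 1.57-fold higher (interval 1.43 to 1.74), VEGFA 1.498-fold higher (interval 1.35 to 1.67) and ANKRD37 at 0.534 (interval 0.346 to 0.801), but NDRG1 was at 0.896 with scrambled siRNA as the control.

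Fatty acid genes known to be controlled together with PDK4 in liver were read because PDK4 itself was at the floor. Of 8 measured in CDK4/6 KD, 2 were at least 2-fold higher and 0 lower (median 0.22), and of 7 after PD0332991 0 were past 2-fold (median 0.28). CPT1A, which commits fatty acids to oxidation, was 2.05-fold higher in CDK4/6 KD (interval 1.89 to 2.23) and 1.57-fold higher after PD0332991 (interval 1.46 to 1.70). PLIN2, a lipid droplet coat protein, was at 0.536 (interval 0.519 to 0.552) and 0.638 (interval 0.609 to 0.668). With DMSO as the control CPT1A was at 1.33 and PLIN2 at 1.13 in CDK4/6 KD, and scrambled siRNA set against DMSO gave 0.647 and 2.12. For PLIN2 the direction turned, and its PD0332991 value with scrambled siRNA as the control was 0.302. For CPT1A that value was 2.43. ANGPTL4, a lipase inhibitor, went from 7 reads in scrambled siRNA to 32 in CDK4/6 KD (fold change: 4.11, interval 1.87 to 11.6), but was at 8.43 CPM in DMSO and 0.654 in scrambled siRNA, so the controls differed by more and CDK4/6 KD lay at 0.339 against DMSO.

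**Figure D4:**
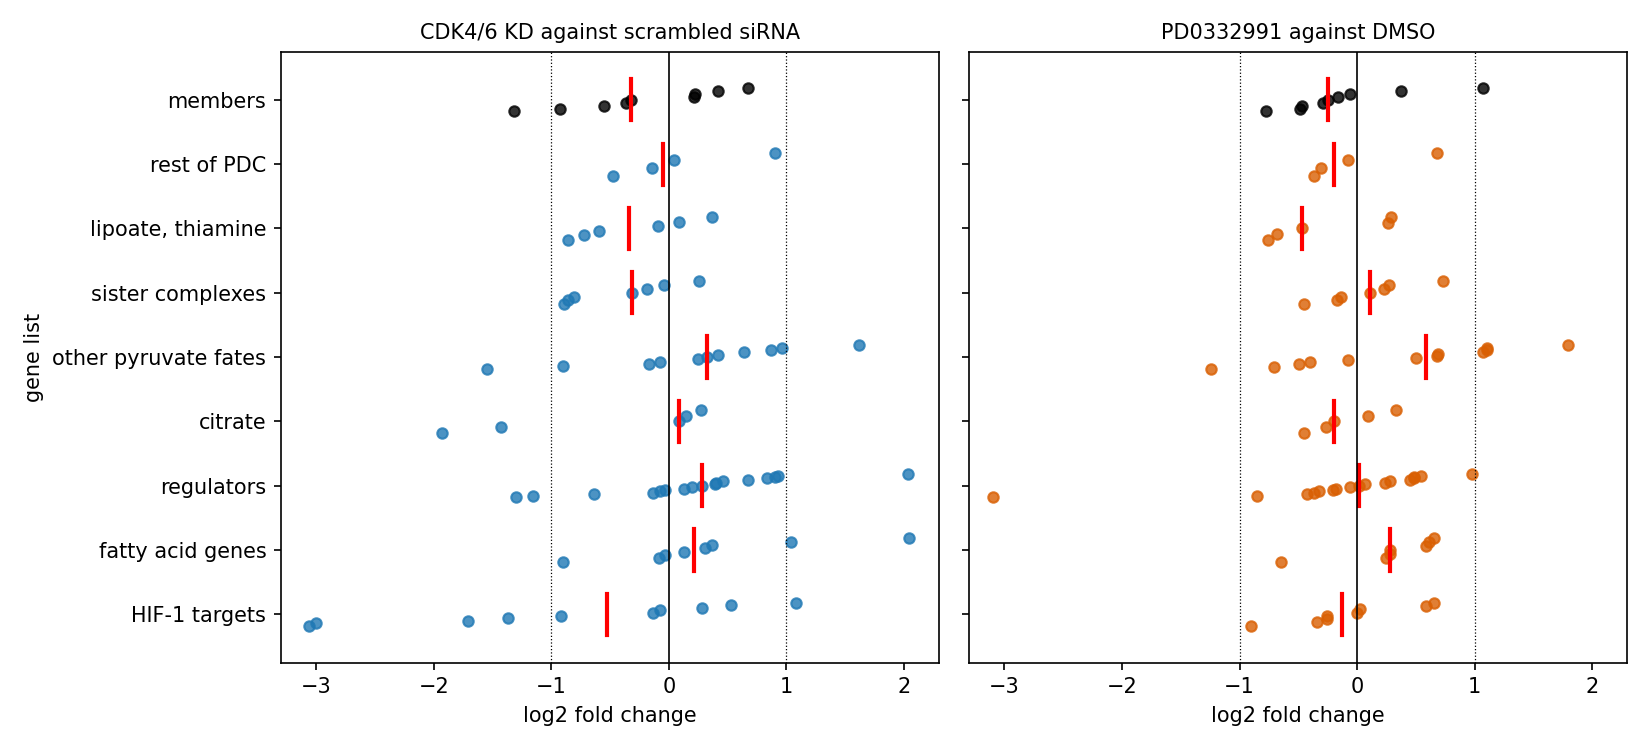
log2 fold change of every measured gene of the members and of the 8 surrounding lists, for CDK4/6 KD against scrambled siRNA (left) and PD0332991 against DMSO (right); each point is 1 gene, red bars are list medians and dotted lines mark 2-fold. The members lie between -1.32 and 0.68 in CDK4/6 KD with a median of -0.32, and E2F1 at 0.117-fold is the far left point after PD0332991; the leftmost HIF-1 targets in CDK4/6 KD are SLC2A1 and CA9, the latter with 1 read in CDK4/6 KD and 11 in its control.

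Among genes with at least 50 reads in some library, PDP1 had the widest range of the members over the 4 libraries (1.47 on the log2 CPM scale). PDP1 passed this filter only through scrambled siRNA (53 reads), the library that also set the top of its range. The 5 genes whose centred log2 levels lay nearest to PDP1 among 11377 were FUT6, NAT6, FUK, LOC100506860 and APOL3. Their root mean square distances were 0.0529 to 0.104. FUT6, the nearest, gave 77, 150, 257 and 175 reads in DMSO, PD0332991, scrambled siRNA and CDK4/6 KD. For PDK1, whose range was 1.32, the nearest were LBHD1, C11orf98, SAMD1, MRPL15 and AMD1, at 0.0289 to 0.0663; LBHD1 and C11orf98 overlap on the same strand and were listed with 564 and 561 reads in DMSO. These likenesses rest on 4 libraries and are a description.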

How the data were processed

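HepG2 RNA was sequenced in 4 QuantSeq libraries (75-base reads, 1 library per condition, groups from the sample labels). The authors deposited unnormalized read counts per gene symbol. The submitters' processing notes name Bowtie2, edgeR and hg19; the counter, annotation and strand setting are not given in the sources used here. Each table lists 25737 entries, and counts of the 286 repeated symbols were summed. edgeR 4.0.16 (R 4.3.3) gave TMM factors (0.957 to 1.03), and 0.5 reads, scaled to library size, were added before fold changes; a count of 3 reads was the floor. Intervals used scipy 1.17.1. The procedure was tested on simulated data, which held counting error and no variation between replicate libraries. Shares within a library used raw counts. Positions and exons came from GENCODE 29 on GRCh38 and were not converted to or from hg19.

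The members and lists were chosen with earlier results of these data known, and the PDK1 likeness and the promoters printed were chosen after the values of PDK1, PDHA1 and PDK2 were seen. All members were named, and of each list up to 3 genes per comparison whose interval end nearest to 1 lay farthest from 1; PDHA2, MPC1L, CA9, PDP2 and the overlapping genes were named besides. The single cell type markers and the sum without KRT10 were chosen after their values were seen. Some genes that this rule picks are not reported here. Alternatives were DESeq2 1.42.0 size factors, total counts, limma 3.58.1 quantile normalization, 5 reads as pseudocount, exchanged control libraries, no filter or 50 reads, a 1.5-fold threshold, a whole interval past 2-fold, and the most counted entry of repeated symbols. No test between conditions could be run with 1 library each. Protein sequences were not used here.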

Additional observations from a re-analysis of the deposited data

Results flagged for a closer look

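The 2 subunits of the pyruvate carrier lay on opposite sides of 1 in the 2 arms, with intervals that excluded 1 in each. MPC1 had a fold change of 1.33 in CDK4/6 KD against scrambled siRNA and of 0.722 in PD0332991 against DMSO. MPC2 had fold changes of 1.16 and 0.844. The difference between the arms was not tested, since each condition had 1 library. The control libraries differed from each other by 0.692 for MPC1 and by 1.07 for MPC2, and with the control of the other arm MPC1 was at 0.922 in CDK4/6 KD and 1.04 after PD0332991.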

How the results depend on the processing

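Of the 27 log2 fold changes of single members, 0 changed sign with DESeq2 size factors, total counts alone, a pseudocount of 5 reads, no filter or the most counted entry of repeated symbols, and 1 did with quantile normalization (PDHB after PD0332991, 0.008 in place of -0.063). With the control library of the other arm, 4 of 18 did: MPC1 (-0.117 in CDK4/6 KD and 0.061 after PD0332991) and PDP1 (0.92 and -0.403). The count of 1 member (PDP1) at least 2-fold higher after PD0332991 became 0 with quantile normalization, the other arm's control, a pseudocount of 5 reads, a filter of 50 reads or the whole interval past 2-fold, and that between scrambled siRNA and DMSO became 0 with the last. At 1.5-fold, 1 member was higher and 2 were lower in CDK4/6 KD, and 1 was lower after PD0332991. PDK1 stayed the member called lower in CDK4/6 KD in each 2-fold setting. Of all genes past 2-fold in CDK4/6 KD, 54.7% were higher with TMM, 63.6% with total counts alone, which moved the median of all genes to 0.1, and 50.4% with quantile normalization. The low counts of PDP1 and PDK4 limit what can be read from them. No paired analysis was possible because each condition had 1 library. Leaving out a library was not run for the same reason.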
